A study of Mus musculus with 12 samples.

Results

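The genes described here encode the potassium channels, voltage-gated sodium channels and pacemaker channels of the mouse heart, with their auxiliary subunits. They were chosen by name: symbols beginning with Kcn, with Scn and a digit, or with Hcn and a digit. A symbol was kept when it reached at least 0.5 RPKM (read numbers divided by gene length and library size) in at least 3 of the 12 hearts. Of the 31722 gene symbols in the table, 110 matched the names and 34 passed the minimum. The other 76 are below it. The matched symbol just inside was Kcnk2, whose third-highest heart was at 0.561 RPKM. The symbols just outside were Kcnrg at 0.493 and Scn4a at 0.442 RPKM.

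Heart tissue of C57BL/6J mice was compared between a Control group of 6 mice and a CCL4 group of 6 mice. The CCL4 group received carbon tetrachloride, a solvent toxic to the liver, as a model of cirrhosis, and hearts were taken when the model was complete. The question posed by the study is how liver cirrhosis bears on the heart. The labels give no age, sex, dose, vehicle or duration, and do not say which part of the heart was taken.

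A cardiac action potential starts when sodium channels open and ends as several potassium currents carry charge out of the cell. The transient outward current (Ito) shapes the early phase and is large in mouse ventricle, where it shortens the action potential together with the ultrarapid current (IKur). The rapid and slow delayed rectifiers (IKr and IKs) dominate late repolarization in larger mammals. Inward rectifiers set the resting potential (IK1), respond to acetylcholine in the atria (IKACh) or open when ATP falls (KATP). Two-pore-domain channels (K2P) give a background potassium leak, and HCN channels carry the pacemaker current (If).

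Upstream sequences were available for 22 of the 34 genes in the RefSeq table used here (build GRCm38.p6), as 28 stretches of 250 bases before a transcript start. The pair shown belongs to Kcnj3 and Kcnj5, the subunits of the atrial acetylcholine-gated channel, whose levels followed the atrial gene Myl7 across hearts. Kcnj3 lies on the plus strand at chr2:55435720-55435969 and Kcnj5 on the minus strand at chr9:32344345-32344594. Both are written 5′ to 3′ on the strand of the gene, with capitals marking the T-box motif AGGTGT on either strand.
Kcnj3: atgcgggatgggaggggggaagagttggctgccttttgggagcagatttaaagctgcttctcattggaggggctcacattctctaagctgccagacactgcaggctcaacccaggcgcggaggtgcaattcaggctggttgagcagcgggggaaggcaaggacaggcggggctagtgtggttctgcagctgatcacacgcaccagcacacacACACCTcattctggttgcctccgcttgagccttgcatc
Kcnj5: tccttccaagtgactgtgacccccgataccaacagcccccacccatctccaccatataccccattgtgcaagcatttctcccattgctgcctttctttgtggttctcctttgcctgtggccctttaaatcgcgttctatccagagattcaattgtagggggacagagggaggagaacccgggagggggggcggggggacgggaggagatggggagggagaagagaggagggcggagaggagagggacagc
The T-box letters occur once upstream of Kcnj3 and not in the Kcnj5 window. They occur in 5 of the 28 stretches (17.86%), against 11.83% of the 32851 stretches in the table. The GATA letters AGATAA occur in 2 of the 28 (7.14%, against 9.99%), the E-box letters CACGTG in 2 (7.14%, against 6.02%) and the D-box letters TTATGTAA in 0 (against 0.82%). Both strands were searched, and no stretch held more than 1 kind of motif.

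In steps of the RPKM scale, a relative measure of depth, libraries held between 26350759 (Control replicate 6) and 63405784 (CCL4 replicate 4), and the least covered channel gene, Kcnd3os, held 14 steps in its lowest heart. Myl7, the atrial myosin light chain, was above 100 RPKM in 5 hearts, which were Control replicates 1, 2, 3 and 5 and CCL4 replicate 4 (141 to 419 RPKM). It was at 0.811 to 28.7 RPKM in the other 7 hearts. Myl2, the ventricular light chain, was at 1312 RPKM or more in every heart. CCL4 replicate 3 stood apart, with the highest summed fibroblast markers (339 against 61.1 to 208 RPKM). Its sum over the list of ventricular muscle markers was lowest (13548 RPKM, against 20521 to 27736 in the others). Of that list, Myh6 was lowest there (8990 RPKM) and Hey2 highest (1.65 RPKM). Myl2 was at 1344 RPKM there and at 1312 RPKM in Control replicate 1. CCL4 replicate 3 was the lowest of all 12 hearts for 17 of the 34 channel genes and the highest for 7. Xist, expressed from the inactive X chromosome, did not exceed 0.126 RPKM in hearts numbered 2 and 5, Control and CCL4 alike, and was at least 19.4 RPKM in the others. In whole tissue, fewer cells of a type and less RNA per cell cannot be told apart.

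No channel gene passed the test between the groups. With limma on log2(RPKM + 1) over 15136 genes and Benjamini-Hochberg adjustment, 0% of all genes were higher and 0% were lower at an adjusted p under 0.05. The smallest adjusted p of a channel gene was 0.293 and of any gene 0.0750. At an unadjusted p under 0.05, 5 of the 34 channel genes lay lower in CCL4 hearts (14.71%, against 8.33% of all genes), among them Kcnk3, Kcnv2, Kcna5 and Scn4b. Kcnk2 was among the 2 that lay higher (5.88%, against 1.86% of all genes). Kcnk2 reached the minimum in CCL4 hearts only, so the rule itself favoured a higher value there. Scn4b reached it in 5 Control hearts and 1 CCL4 heart, so for Scn4b the rule favoured a lower value in CCL4 hearts. The list is short, and shares on so few genes are coarse. The exact two-sided permutation test put 6 channel genes lower (9.27% of all genes) and 2 higher (1.16% of all genes) at an unadjusted p under 0.05. With array weights, which weighted the hearts from 0.264 (CCL4 replicate 3) to 5.05 (CCL4 replicate 5), limma called 5 channel genes lower (8.39% of all genes) and 3 higher (4.7% of all genes) at an adjusted p under 0.05. Kcna5, Kcnip2, Kcnk3, Kcnv2 and Scn4b were lower in that fit, and Kcnk2 and Kcnt2 were among the higher. In no channel gene did the groups fail to overlap, against 0.733% of all genes. Fitted differences were below 0 for 24 of 34 channel genes (70.6%) and for 64.5% of all genes. The median difference was -0.12 for channel genes and -0.04 for all genes.

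**Figure D1:**
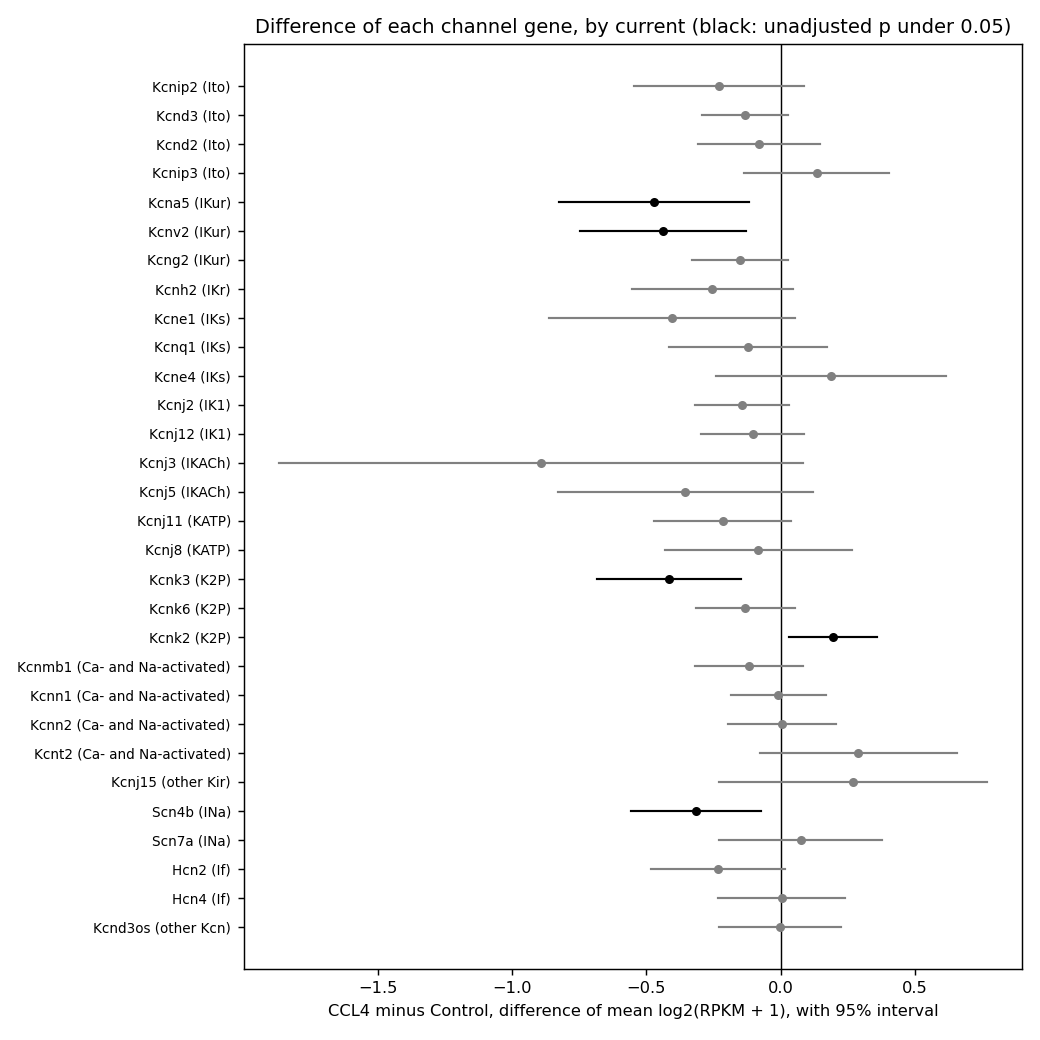
Difference of each channel gene between CCL4 and Control hearts on the log2(RPKM + 1) scale (x axis), with its 95% interval as a line, grouped by current (y axis, n = 6 hearts per group). The 30 genes reported by name are shown. Black marks the 5 of them with an unadjusted p under 0.05, and none has an adjusted p under 0.05.

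The channel genes spanned a wide range of level. RPKM is scaled by gene length, so levels can be set beside each other. Kcnj3 had the highest mean over the 12 hearts (37.3 RPKM), followed by Kcnj8 (11.1), Kcnip2 (8.17) and Kcna5 (6.78). The ranges over hearts of Kcnj8, Kcnip2 and Kcna5 overlapped, so the order among these neighbours is not set beyond their spread. Kcnj3 ran from 9.14 to 103 RPKM and Kcnj8 from 6.62 to 14.6 RPKM, so these ranges overlapped too. In CCL4 replicate 3 Kcnj3 (9.14 RPKM) lay below Kcnj8 (10.9 RPKM). A mean of at least 1 RPKM was found for 22 of the 34 genes and at least 5 RPKM for 7. All 12 hearts reached the minimum for 22 genes.

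**Figure D2:**
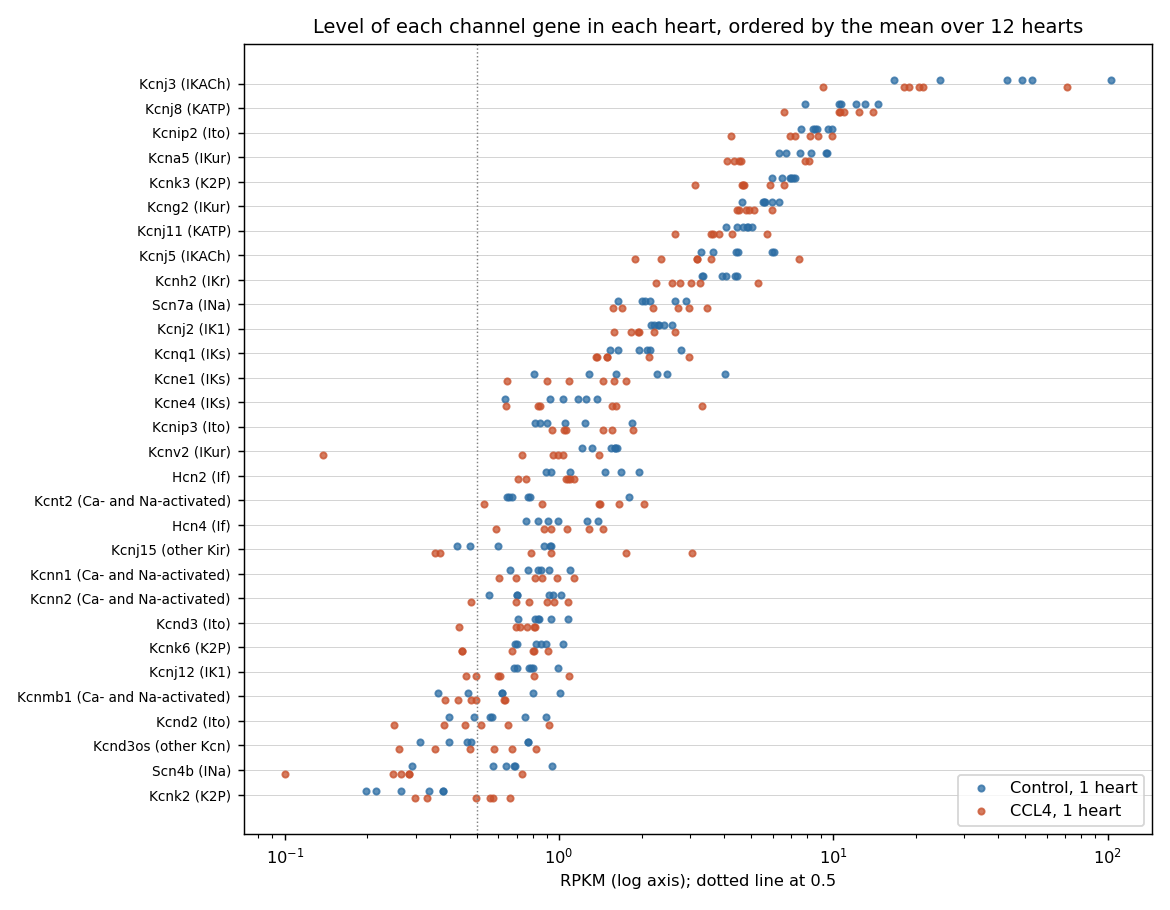
RPKM of 30 channel genes (log x axis) in each of 12 hearts (blue Control, orange CCL4; 1 point per heart), ordered by the mean over all hearts with the current in brackets. Kcnj3 has the highest mean, 37.3 RPKM, and the dotted line marks the minimum of 0.5 RPKM.

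Among the genes of Ito, the auxiliary subunit Kcnip2, which brings Kv4 channels to the membrane and is required for the current in mouse ventricle, was the most abundant. Its Control hearts ran from 7.65 to 9.85 RPKM (median 8.63) and its CCL4 hearts from 4.22 to 9.85 RPKM (median 7.71). CCL4 replicates 3, 5 and 6 lay below every Control heart, with replicate 3 lowest, and the other 3 lay inside the Control range or at its top. The difference was -0.23 ± 0.15 (SE) on the log2 scale, with a limma adjusted p of 0.631, and -0.09 without CCL4 replicate 3. The pore-forming subunits were far lower. Kcnd2 (Kv4.2) ran from 0.398 to 0.896 RPKM among Control hearts (median 0.565) and from 0.25 to 0.915 RPKM among CCL4 hearts (median 0.486). Kcnd3 (Kv4.3) ran from 0.71 to 1.08 RPKM among Control hearts (median 0.843) and from 0.433 to 0.82 RPKM among CCL4 hearts (median 0.743). For Kcnd3 6 of 6 CCL4 hearts lay under the median of Control, with a difference of -0.13 ± 0.07 (SE) and a limma adjusted p of 0.561. Without CCL4 replicate 3 it was -0.085. The Kcnd2 difference was -0.08 ± 0.11 (SE, limma adjusted p = 0.843), -0.026 without CCL4 replicate 3, -0.033 without Control replicate 3 and -0.15 without CCL4 replicate 4. With Myl7 as a covariate it was -0.045. Kcnip3, also a binding partner of Kv4 channels, was at 1.12 RPKM among Control hearts and 1.32 RPKM among CCL4 hearts on average. Kcna4 (Kv1.4), which carries the slow transient outward current, was below the minimum at means of 0.173 and 0.210 RPKM. The antisense RNA Kcnd3os, which shares 1.7% of the exon bases of Kcnd3 on the opposite strand, was at 0.53 ± 0.194 RPKM among Control hearts and 0.528 ± 0.209 RPKM among CCL4 hearts (each ± SD, n = 6).

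Of the genes of IKur and sustained outward current, Kcna5 (Kv1.5) and Kcnv2 (a silent subunit that modifies other potassium channels) lay lower at the unadjusted level. Kcna5 lies on chromosome 6 from 126532551 to 126535412 (minus strand) by the GENCODE M21 annotation of GRCm38, as for the positions that follow. It was at 6.36 to 9.46 RPKM among Control hearts (median 7.90) and at 4.11 to 8.12 RPKM among CCL4 hearts (median 4.57). CCL4 replicates 2, 3, 4 and 5 lay below every Control heart, while replicates 1 and 6 lay inside the Control range. The difference was -0.47 ± 0.16 (SE), with a limma unadjusted p of 0.0125 and adjusted p of 0.363. It was -0.41 without CCL4 replicate 3, and -0.60 with Myl7 as a covariate. Kcnv2 lies on chromosome 19 from 27322588 to 27337179 (plus strand). It was at 1.21 to 1.63 RPKM among Control hearts (median 1.57) and at 0.138 to 1.40 RPKM among CCL4 hearts (median 0.973). Its CCL4 hearts other than replicate 1 all lay below the lowest Control heart, and replicate 3, at 0.138 RPKM, was far below the rest. The difference was -0.44 ± 0.14 (SE, limma adjusted p = 0.320) and -0.30 without that heart. The silent subunit Kcng2 had means of 5.63 and 4.97 RPKM. The other 12 genes listed for this current were below the minimum.

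**Figure D3:**
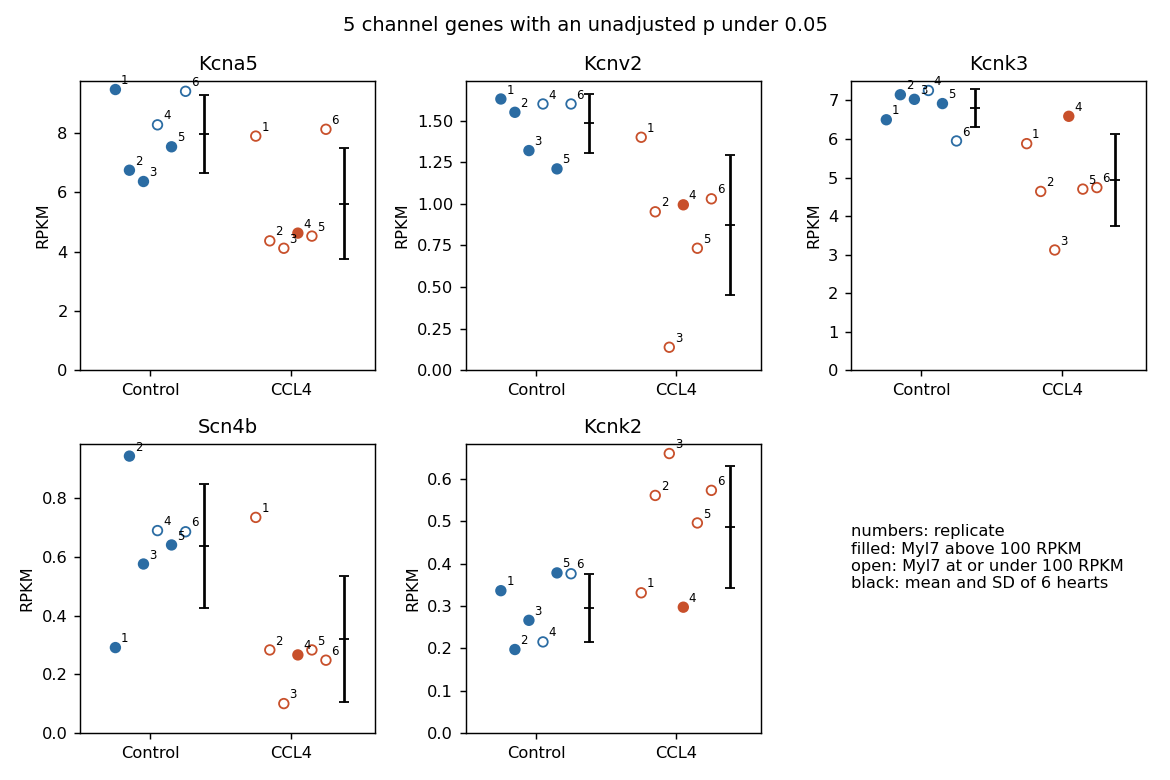
RPKM (y axis, from 0) in each heart for 5 channel genes with an unadjusted p under 0.05, by group, with replicate numbers beside the points and mean and SD of 6 hearts in black. Filled points are the 5 hearts with Myl7 above 100 RPKM, and the 2 groups overlap in every panel.

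For IKr, the pore-forming gene Kcnh2 (the mouse homologue of hERG) was the only one of its list above the minimum. It was at 3.33 to 4.46 RPKM in Control hearts (median 3.98). CCL4 hearts were at 2.25 to 5.33 RPKM (median 2.89), with replicate 4 above every Control heart and the other 5 below every Control heart. The difference was -0.25 ± 0.14 (SE, limma adjusted p = 0.556). Without CCL4 replicate 4, the CCL4 heart with Myl7 above 100 RPKM, it was -0.38, with a limma adjusted p of 0.245. With Myl7 as a covariate it was -0.11.

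For IKs, the pore gene Kcnq1 was at 1.53 to 2.78 RPKM among Control hearts (median 2.02) and 1.36 to 2.97 RPKM among CCL4 hearts (median 1.5). Its difference was -0.12 ± 0.14 (SE, limma adjusted p = 0.812). It was -0.23 without CCL4 replicate 4, -0.055 without Control replicate 3, -0.078 without CCL4 replicate 1 and -0.080 without CCL4 replicate 2. Its auxiliary subunit Kcne1 varied widely, from 0.813 to 4.03 RPKM among Control hearts (median 1.94) and from 0.647 to 1.76 RPKM among CCL4 hearts (median 1.27). Every CCL4 heart was below the Control median of Kcne1, yet the spread within Control hearts was large and the difference, -0.40 ± 0.21 (SE), had a limma adjusted p of 0.543. It was -0.25 without Control replicate 3, the highest heart, and -0.65 within the 7 hearts low in Myl7 (2 Control, 5 CCL4). Within the 5 hearts rich in Myl7 (4 Control, 1 CCL4) it was -0.15. Kcne4, an auxiliary subunit, was at means of 1.06 and 1.47 RPKM, with CCL4 replicate 3 at 3.31 RPKM.

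Neither gene of IK1 above the minimum had an unadjusted p under 0.05. Kcnj2 (Kir2.1), which sets the resting potential of ventricular muscle, was at 2.16 to 2.59 RPKM among Control hearts (median 2.31) and 1.59 to 2.65 RPKM among CCL4 hearts (median 1.95). The difference was -0.14 ± 0.08 (SE, limma adjusted p = 0.572). Kcnj12 (Kir2.2), its relative, was at 0.685 to 0.994 RPKM among Control hearts (median 0.782) and 0.458 to 1.09 RPKM among CCL4 hearts (median 0.604), with a difference of -0.10 ± 0.09 (SE, limma adjusted p = 0.735), -0.17 without CCL4 replicate 4 and -0.066 without CCL4 replicate 2. For both genes CCL4 replicate 4 was the highest of the 12 hearts. With Myl7 as a covariate the difference was -0.086 for Kcnj2 and -0.024 for Kcnj12.

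The acetylcholine-gated channel, formed by Kcnj3 (Kir3.1) and Kcnj5 (Kir3.4) and known for slowing the atria under vagal drive, followed Myl7. Kcnj3 was at 42.8 to 103 RPKM in the 5 hearts with Myl7 above 100 RPKM and at 9.14 to 24.5 RPKM in the other 7. Kcnj5 was at 4.43 to 7.5 RPKM in the first and 1.89 to 3.64 RPKM in the second. These 2 genes were the only channel genes of the 34 in which all hearts rich in Myl7 lay above all others (0.852% of all genes did so, and 0.00661% lay below), and no channel gene lay the other way. Since 4 of those 5 hearts are Control hearts, the split by Myl7 and the groups largely coincide. Between the groups Kcnj3 was at 48.0 ± 30.2 RPKM among Control hearts and 26.6 ± 22.4 RPKM among CCL4 hearts (each ± SD, n = 6). The difference was -0.89 ± 0.45 (SE, limma adjusted p = 0.525), -0.25 with Myl7 as a covariate and -0.25 within the 7 hearts low in Myl7. In the 5 hearts rich in Myl7 it was 0.30, with only 1 CCL4 heart. Kcnj5 was at 4.65 ± 1.15 RPKM among Control hearts and 3.62 ± 2.00 RPKM among CCL4 hearts (each ± SD, n = 6), with a difference of -0.36 ± 0.22 (SE, limma adjusted p = 0.614), -0.11 with Myl7 as a covariate and -0.55 without CCL4 replicate 4. Of the exon bases of Kcnj3, 31.1% are covered on the opposite strand by the RNA Gm26794 (0.541 RPKM among Control hearts and 0.394 RPKM among CCL4 hearts). The strand setting of the counting is not given in the sources used here.

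**Figure D4:**
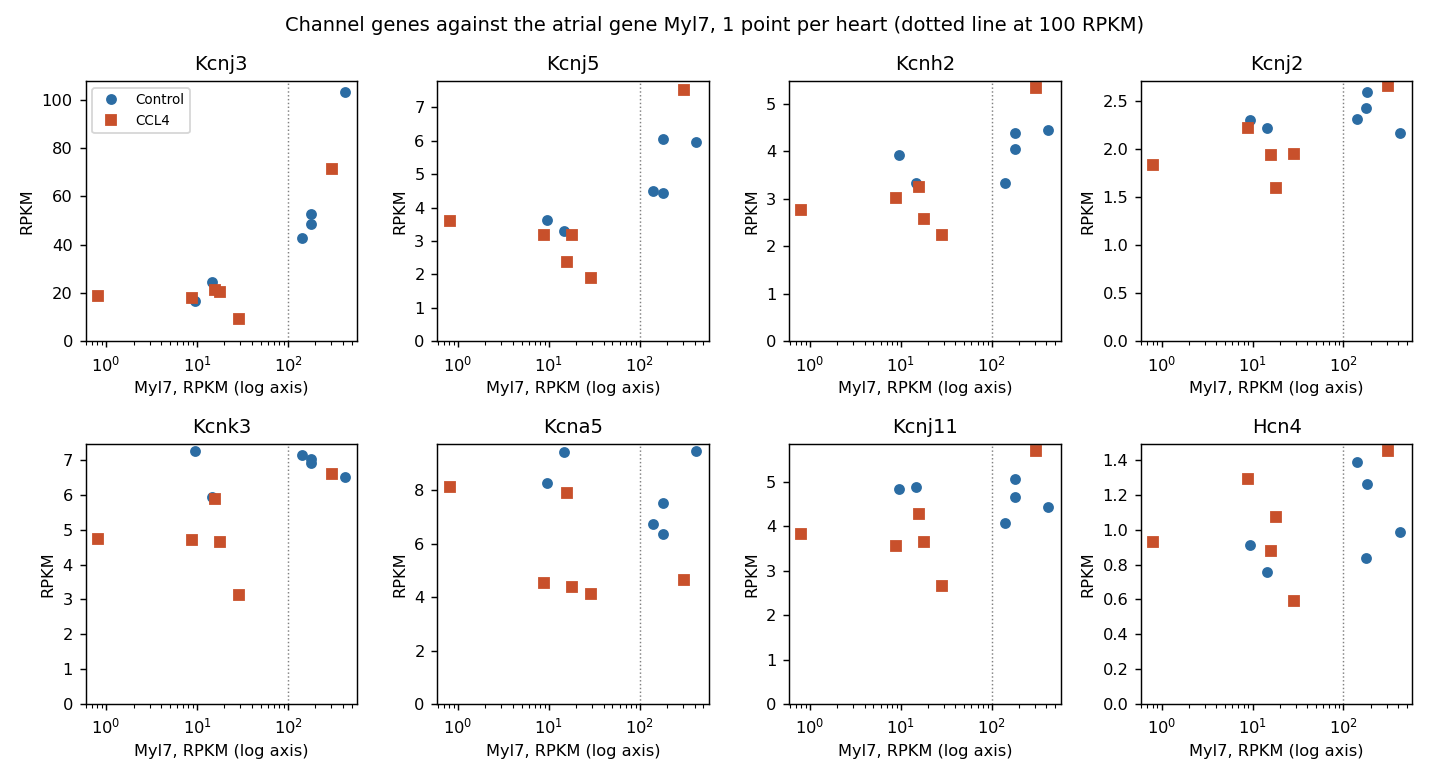
RPKM of 8 channel genes (y axis, from 0) against Myl7 in RPKM (log x axis), 1 point per heart (blue circles Control, orange squares CCL4), with a dotted line at 100 RPKM. In the panels for Kcnj3 and Kcnj5 all 5 hearts to the right of the line lie above the 7 to its left.

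Other genes of the 34 that are linked to the atria did not separate the hearts fully in that way. Kcna5 was at 4.62 to 9.46 RPKM in the 5 hearts rich in Myl7 and at 4.11 to 9.40 RPKM in the other 7. Kcnk3 was at 6.5 to 7.15 RPKM in the 5 (median 6.92) and at 3.12 to 7.26 RPKM in the 7 (median 4.74). These ranges overlapped through Control replicate 4 (7.26 RPKM) only, and the next highest of the 7 was at 5.95 RPKM. Hcn4 was at 0.839 to 1.45 RPKM in the 5 and 0.591 to 1.29 RPKM in the 7. The differences between the groups were also taken within the 7 hearts low in Myl7 (2 Control, 5 CCL4) and within the 5 rich in it (4 Control, 1 CCL4). They were -0.58 and -0.59 for Kcna5, -0.36 and -0.33 for Scn4b and -0.53 and -0.28 for Kcnv2. Those of Kcnk3 were -0.45 and -0.06. Those of Kcnk2 were 0.23 and 0.01.

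For KATP, the pore gene Kcnj8 (Kir6.1), typical of vascular cells, was at 7.89 to 14.6 RPKM among Control hearts (median 11.4) and 6.62 to 13.9 RPKM among CCL4 hearts (median 10.8). Its difference was -0.08 ± 0.16 (SE, limma adjusted p = 0.904). Kcnj11 (Kir6.2), typical of ventricular muscle, was at 4.07 to 5.07 RPKM among Control hearts (median 4.76) and 2.65 to 5.71 RPKM among CCL4 hearts (median 3.74). For Kcnj11 CCL4 replicate 4 was highest and replicate 3 lowest of all hearts, and the difference was -0.22 ± 0.12 (SE, limma adjusted p = 0.560). Without replicate 3 of CCL4 it was -0.13, and without its replicate 4 it was -0.31. With Myl7 as a covariate it was -0.17. The direction of the small Kcnj8 difference was not stable. It was above 0 in an added scaling that leaves mitochondrial genes and their nuclear copies out, and with array weights. With Myl7 as a covariate the Kcnj8 difference was further from 0, at -0.26 ± 0.15 (SE). It was -0.09 within the 7 hearts low in Myl7 (2 Control, 5 CCL4). Within the 5 hearts rich in Myl7 (4 Control, 1 CCL4) it was -0.62. Of the pericyte markers, the cells where Kcnj8 is best known, 0 of 5 had an unadjusted p under 0.05, and their summed level was 185 to 280 RPKM among Control hearts and 137 to 243 RPKM among CCL4 hearts. Whether pericyte content moves Kcnj8 was not tested.

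Among the background leak channels, Kcnk3 (TASK-1), which is known from the atria, conduction system and pulmonary vessels, had the smallest limma p of all channel genes. Kcnk3 lies on chromosome 5 from 30588170 to 30625271 (plus strand). Control hearts were at 5.95 to 7.26 RPKM (median 6.98) and CCL4 hearts at 3.12 to 6.59 RPKM (median 4.72). CCL4 replicates 1, 2, 3, 5 and 6 lay below every Control heart. Replicate 4, the CCL4 heart with Myl7 above 100 RPKM, lay inside the Control range. The difference was -0.42 ± 0.12 (SE), with a limma unadjusted p of 0.00498 and adjusted p of 0.293. An exact two-sided permutation test gave p = 0.00866, where Kcnv2 had p = 0.00649. Its difference was -0.31 without CCL4 replicate 3, and -0.36 with Myl7 as a covariate. Kcnk2 (TREK-1), a mechanically gated channel, was at 0.197 to 0.378 RPKM among Control hearts (median 0.301) and 0.297 to 0.660 RPKM among CCL4 hearts (median 0.528). Kcnk2 lies on chromosome 1 from 189207930 to 189402273 (minus strand). Its difference was 0.20 ± 0.08 (SE, limma adjusted p = 0.403), and 0.16 with Myl7 as a covariate. Replicates 2, 3, 5 and 6 of CCL4 were above every Control heart. Kcnk6 was at means of 0.833 and 0.680 RPKM.

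Of the calcium- and sodium-activated potassium channels, Kcnn2 (SK2), found in atrial and ventricular muscle, was at 0.555 to 1.02 RPKM among Control hearts (median 0.812) and 0.479 to 1.08 RPKM among CCL4 hearts (median 0.842). The difference was 0.00 ± 0.09 (SE, limma adjusted p = 0.992), with a 95% interval of -0.20 to 0.21. Kcnt2 (Slick), a sodium-activated channel, was at 0.644 to 1.80 RPKM among Control hearts (median 0.722) and 0.531 to 2.04 RPKM among CCL4 hearts (median 1.41). Its highest Control heart was replicate 1. The difference was 0.29 ± 0.17 (SE, limma adjusted p = 0.591). Kcnn1 was near 0.86 RPKM among Control hearts and 0.85 RPKM among CCL4 hearts on average, and Kcnmb1, a smooth muscle subunit, was at 0.647 and 0.508 RPKM. Of the smooth muscle markers 2 of 5 (Acta2 and Smtn) lay lower at an unadjusted p under 0.05. Their summed level was 223 to 375 RPKM among Control hearts and 193 to 277 RPKM among CCL4 hearts, and their part in the level of Kcnmb1 was not tested. Of the other inward rectifiers, which are not in that class, Kcnj15 (Kir4.2) was at 0.426 to 0.931 RPKM among Control hearts and 0.353 to 3.05 RPKM among CCL4 hearts. Replicate 3 was highest, and the difference was 0.27 ± 0.23 (SE, limma adjusted p = 0.741), or 0.07 without that heart.

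Among the sodium channel genes, the beta subunit Scn4b, linked to resurgent and late sodium current, was at 0.291 to 0.944 RPKM among Control hearts (median 0.663) and 0.1 to 0.735 RPKM among CCL4 hearts (median 0.275). Scn4b lies on chromosome 9 from 45138395 to 45154152 (plus strand). Control replicate 1 was low and CCL4 replicate 1 was high. The difference was -0.32 ± 0.11 (SE, limma adjusted p = 0.373), and its lowest heart held only 24 steps. Scn7a (Nax), a sodium-sensing relative, had means of 2.23 and 2.44 RPKM. Leukocyte markers were highest in CCL4 replicates 3, 5 and 6, in which Kcne4 was highest too, and fibroblast markers in CCL4 replicates 3 and 6. The summed fibroblast level was 61.1 to 172 RPKM among Control hearts and 73.8 to 339 RPKM among CCL4 hearts, and the summed leukocyte level 4.93 to 5.41 and 3.30 to 24.1 RPKM. Their part in the levels of Kcne4 was not tested.

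For the pacemaker current, Hcn2, the main form in mouse working muscle, was at 0.893 to 1.96 RPKM among Control hearts (median 1.29) and 0.708 to 1.13 RPKM among CCL4 hearts (median 1.07). Every CCL4 heart was below the Control median. The difference was -0.23 ± 0.12 (SE, limma adjusted p = 0.517). Hcn4, the main form of the sinoatrial node, was at 0.757 to 1.39 RPKM among Control hearts (median 0.951) and 0.591 to 1.45 RPKM among CCL4 hearts (median 1). The difference was 0.00 ± 0.11 (SE, limma adjusted p = 0.995), with a 95% interval of -0.23 to 0.24, and its sign turned under other settings. Sinoatrial and conduction markers were tested for 6 of 8 genes, of which Smoc2 was higher and Tbx3 lower at an unadjusted p under 0.05.

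**Figure D5:**
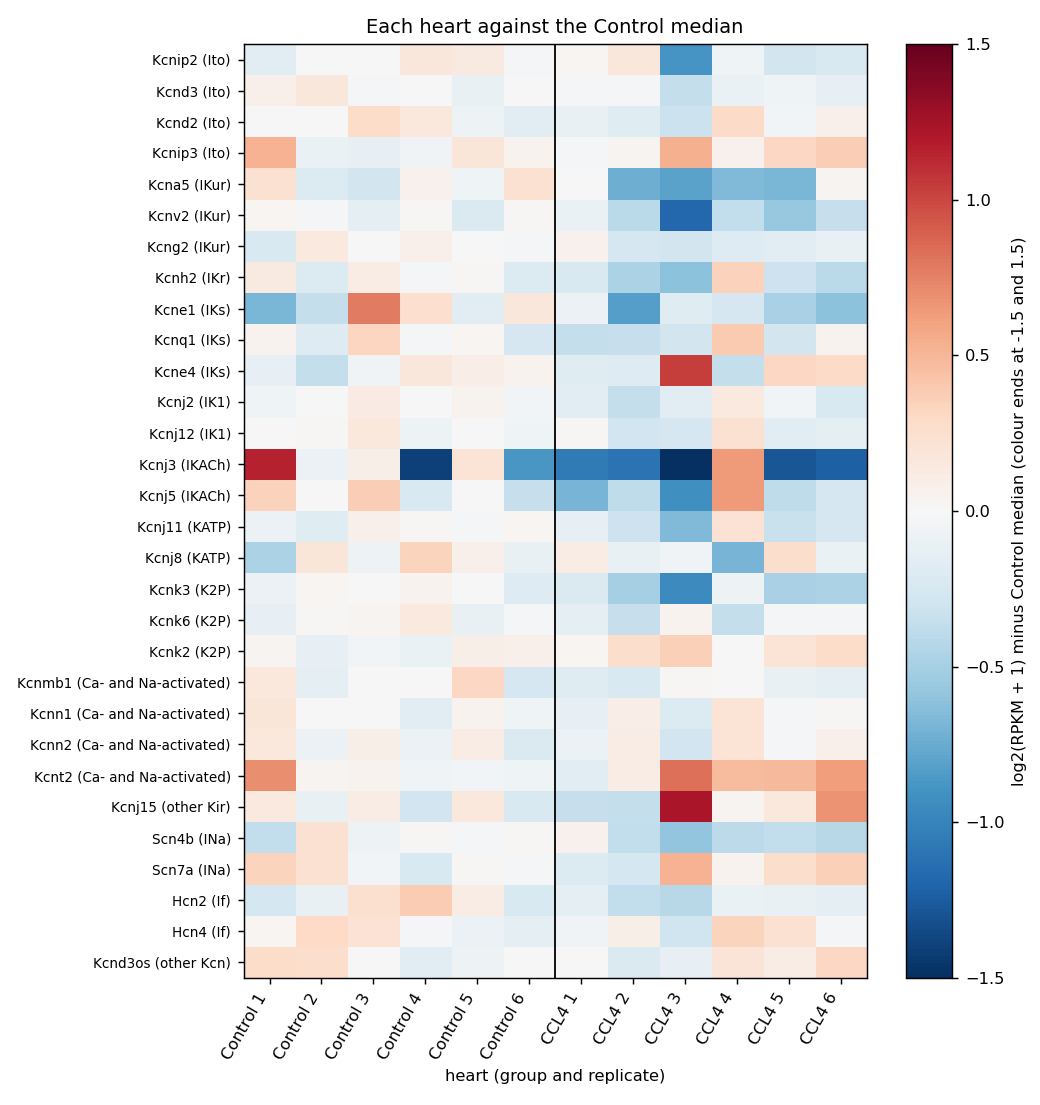
30 channel genes (rows, grouped by current) in each of 12 hearts (columns), as log2(RPKM + 1) minus the Control median of the gene, from blue (below) to red (above). CCL4 replicate 3 is lowest of all hearts for 16 of these 30 genes, and CCL4 replicate 4 highest for 10.

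Genes that act with channels were read from a list of 26 partners, of which 24 were tested. At an unadjusted p under 0.05, Lrrc10 lay higher and Sgk1, Bves and Abcc8 lay lower, and 0 passed after adjustment. Sgk1, a kinase that raises the surface level of several channels, was at 11.8 ± 2.64 RPKM among Control hearts and 7.03 ± 1.88 RPKM among CCL4 hearts (each ± SD, n = 6), a difference of -0.68 ± 0.17 (SE) with a limma adjusted p of 0.211. Bves, which binds cyclic AMP and Kcnk2 channels, was at 2.88 and 2.17 RPKM on average, a difference of -0.30 (limma adjusted p = 0.299). Abcc8, a KATP subunit of atrial type, was at 2.38 and 1.70 RPKM, a difference of -0.32 (limma adjusted p = 0.382). Like Kcnj3 and Kcnj5, Abcc8 split the hearts by Myl7. It was at 2.15 to 3.37 RPKM in the 5 hearts rich in Myl7 (4 Control, 1 CCL4) and at 1.3 to 2.01 RPKM in the other 7. Lrrc10, a cardiac protein that binds the L-type calcium channel, was at 31.0 and 42.1 RPKM, a difference of 0.44 (limma adjusted p = 0.396). Dpp6 and Dpp10, partners of Kv4 channels in neurons, were at 0.00314 and 0.000493 RPKM on average in Control hearts and not tested. Of 22 regulators of channel genes, 20 were tested. Tbx3, a repressor that marks the conduction system, was at 1.77 ± 0.404 RPKM among Control hearts and 0.966 ± 0.198 RPKM among CCL4 hearts (each ± SD, n = 6). Its difference was -0.49 ± 0.11 (SE, limma adjusted p = 0.160). Thra, the thyroid hormone receptor, was at 13.1 and 11.1 RPKM, a difference of -0.22 (limma adjusted p = 0.445). The medians were -0.11 for partners and -0.01 for regulators, against -0.04 over all genes.

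The endothelial markers (Cdh5, Pecam1, Tie1, Esam and Kdr) lay lower in 5 of 5 at an unadjusted p under 0.05, with summed levels of 125 to 155 RPKM among Control hearts and 78.7 to 119 RPKM among CCL4 hearts. Of 7 genes listed as ventricular muscle markers, 2 (Myh6 and Tnni3) lay lower at that level. The list summed to 21751 to 27736 RPKM among Control hearts and 13548 to 23473 RPKM among CCL4 hearts. Myh6 alone averaged 16213.3 and 13468.5 RPKM, a large part of that sum. Differences of the list were below 0 for 5 genes, among them Myl2 (-0.21, limma adjusted p = 0.703). Those of Irx4 (0.03) and Hey2 (0.02) were above 0. Lung markers (Sftpc, Sftpa1 and Scgb1a1) summed to 0 to 0.189 RPKM and none was tested. Neuronal markers summed to 0.764 to 4.67 RPKM. The part of these cell types in the lower levels of Kcnk3, Kcna5, Kcnv2 and Scn4b was not tested.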

How the data were processed

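RNA of 12 mouse hearts (6 Control, 6 CCL4) was sequenced from stranded libraries, per the labels' protocols. The submitters' processing notes name Trimmomatic 0.36, featureCounts (Subread 1.5.1) and the build GRCm38. Aligner, annotation release and strand setting are not given in the sources used here. RPKM values were deposited by the authors. Multiplied by GENCODE M21 exon lengths (95.2% of symbols), values of up to 30 steps lay within 0.05 of a whole step in 92.6% to 93.8% of cases, where 10% would by chance. A step can be less than a fragment, since 71.3% to 75.5% were even, so totals are relative depths.

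Genes at 0.5 RPKM or more in at least 3 hearts (15136) were fitted with limma 3.58.1 (trend) in R 4.3.3 on log2(RPKM + 1), which understates changes of low genes. Groups came from titles. P-values measure the spread between these hearts, described as separate mice. The fit was tested on simulated data. The members and gene lists were chosen with earlier results of these data known. Named genes were the main genes of each current, those with an unadjusted p under 0.05 and the most abundant of each current, plus up to 4 genes per other list. Alternatives covered pseudocount, filter, scaling, weights, covariates, Myl7 subsets, an exact test, the replicate block and each heart left out. Tables were made in Python 3.11.15 (pandas 2.3.3, numpy 2.4.6) and plots in matplotlib 3.10.9. The results of 4 of the 34 genes are counted but not reported here by name.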

Additional observations from a re-analysis of the deposited data

Results flagged for a closer look

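In 7 of 68 groups of 6 hearts, 1 heart lay apart from the other 5 by more than Dixon's 95% limit, where chance gives about 1 in 20 groups, or 3.4 here. CCL4 replicate 4 was above the other CCL4 hearts for Kcnj3 (71.4 RPKM against 9.14 to 21.3), Kcnj5 (7.5 against 1.89 to 3.59) and Kcnh2 (5.33 against 2.25 to 3.26). It is the CCL4 heart with Myl7 above 100 RPKM. CCL4 replicate 3 was below the others for Kcnd3 (0.433 against 0.695 to 0.82 RPKM) and above them for Kcne4 (3.31 against 0.641 to 1.61 RPKM). CCL4 replicate 1 was above the others for Scn4b (0.735 against 0.1 to 0.283 RPKM). Control replicate 1 was above the others for Kcnt2 (1.80 against 0.644 to 0.783 RPKM).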

How the results depend on the processing

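The number of channel genes at an unadjusted p under 0.05 was 2 higher and 5 lower. The number higher was 1 with a filter of 0.5 RPKM in 6 hearts (1.6% of all genes), where Kcnk2 and Kcnd3os were not tested. It was 1 with TPM scaling (1.1% of all genes) and 1 with Myl7 as a covariate (1.62% of all genes). In the hearts with Myl7 at or under 100 RPKM 1 channel gene was higher (1.51% of all genes) and 2 lower (3.31% of all genes). The hearts above 100 RPKM hold only 1 CCL4 heart, so calls among them are not counted. With array weights 5 were higher (11.6% of all genes) and 12 lower (18.7% of all genes). At an adjusted p under 0.05 that fit put 3 higher (4.7% of all genes) and 5 lower (8.39% of all genes). Leaving out 1 heart gave 1 to 3 channel genes higher (0.998% to 4.18% of all genes) and 5 to 11 lower (5.76% to 13.5% of all genes). There were 11 lower without CCL4 replicate 4, where 8.63% of all genes were lower. There were 8 without Control replicate 1, where 10.3% were, and 5 without CCL4 replicate 3, where 13.5% were. At an adjusted p under 0.05, leaving out 1 heart gave 0 channel genes in either direction in every case. Median-of-ratios scaling gave 872 higher and 812 lower of all genes at an unadjusted p under 0.05, against 281 and 1261, but 2 and 4 channel genes. Quantile normalization gave 3 and 4 channel genes (5.45% and 5.74% of all genes) and TPM scaling 1 and 6 (1.1% and 10.3% of all genes). TPM scaling moved the median of all genes to -0.10.

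Differences of 10 genes turned positive within the hearts rich in Myl7 (4 Control, 1 CCL4): Kcnd3os (0.0766), Kcnn1 (0.15), Kcnd2 (0.24), Kcnh2 (0.33), Kcnj11 (0.27), Kcnj12 (0.19), Kcnj2 (0.12), Kcnj3 (0.30), Kcnj5 (0.46) and Kcnq1 (0.34), while 4 turned negative: Kcne4 (-0.25), Scn7a (-0.087), Kcnip3 (-0.063) and Kcnj15 (-0.0329). The cause was not tested.
Values near 0 changed sign. Hcn4 was at -0.0041 with a pseudocount of 0.1, -0.043 with TPM scaling, -0.0049 with voom and -0.0533 to 0.0715 with 1 heart left out. Kcnn2 was at -0.0372 with TPM scaling, -0.0229 with voom and -0.0386 to 0.0613. Kcnj8 was at 0.0090 with array weights, 0.0049 without mitochondrial genes and their copies, and -0.176 to 0.0376. Kcnd3os was at 0.016 (median of ratios), 0.0121 (no mitochondrial genes), 0.0144 (quantile), 0.125 (array weights), 0.0256 (Myl7 covariate), 0.0766 (Myl7 above 100 RPKM), 0.0951 (the other hearts), 0.0264 (voom), 0.0215 (no mitochondrial genes or copies) and -0.0574 to 0.0494. Voom on recovered steps and the scaling without nuclear copies were chosen after seeing the data.

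With the replicate number as a block (replicate block), 2 channel genes were higher and 4 lower at an unadjusted p under 0.05, and 0 after adjustment. Of all genes, 1.62% were higher and 5.92% lower at that unadjusted level. Correlations between hearts of the same number were -0.455, 0.224, -0.0179, -0.246, 0.172 and 0.145 for numbers 1 to 6. Only 2 of 6 correlated best with their own number. These were numbers 2 and 5, the numbers low in Xist in both groups. The lowest heart held under 100 steps in 16 of the 34 genes, which limits precision.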
